A study of Gallus gallus with 4 samples.

Results

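The regions described here are the c-Myc ChIP-seq peaks that lie in transposable elements of the chicken genome. A peak was counted when the repeat label in the deposited annotation placed it in an element of the LINE, LTR, DNA or SINE class, which gave 1022 of the 20415 peaks in 2 lists. Of these, 34 came from the 1061 peaks of myotubes and 988 from the 19354 peaks of myoblasts. No measured tag count entered this choice.

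The cells were primary chicken embryo skeletal muscle myoblasts at passage 1, grown in RPMI medium. Myotubes were cells of this kind that had been differentiated in medium with 2% horse serum, and myoblasts were proliferating cells kept in medium with 15% fetal bovine serum. In each state chromatin was precipitated with an antibody to c-Myc (abcam, ab56) in 1 library and with non-specific IgG (bioss, bs-0310P) in another, and both libraries were sequenced from paired ends. All 4 libraries share the primary culture system, and whether several embryos were pooled is not stated in the labels. The series sets c-Myc against IgG within a state and places the resulting peak lists of myotubes and myoblasts side by side. With 1 c-Myc library per state there is no replicate, so no test between states was made, peaks are not replicates of a state, and the 95% intervals below are exact binomial or Poisson intervals that cover counting error only.

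Transposable elements are stretches of DNA that have copied or moved themselves through a genome, and most copies are old, truncated and no longer mobile. LINE elements and the SINE elements that depend on them spread by reverse transcription of an RNA copy, LTR elements are retroviral in origin and carry long terminal repeats, and DNA transposons move by excision and insertion. In birds the dominant LINE family is CR1 (chicken repeat 1), which keeps many truncated copies of several subfamilies named by letters. c-Myc is a basic helix-loop-helix leucine zipper transcription factor that pairs with MAX, binds E-box sequences and is active in proliferating cells, and its level is known to fall when myoblasts withdraw from the cell cycle.

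The c-Myc library of myotubes held 8651343 tags and the IgG library of that state 19281498.5, while the c-Myc library of myoblasts held 11473538.5 tags and its IgG library 16080311.5. Peaks were 154 bp wide in myotubes and 200 bp wide in myoblasts. The deposited score of a peak is the number of c-Myc tags that the peak caller assigned to it, per 10000000 tags of the library; the lowest score in the list was 10.4 in myotubes and 7.84 in myoblasts. The tags of both antibodies over each peak were counted by the authors in a separate step, in units of 0.5, and can differ from the caller's number. The depth, the ratio of IgG to c-Myc tags, the peak width and the length of the list all differ between the states, and their part in any difference between myotubes and myoblasts cannot be told apart from that of the state.

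Elements made up a small share of both lists. In myotubes 3.20% of peaks lay in a transposable element (interval 2.23 to 4.45%), against 5.10% in myoblasts (4.80 to 5.42%). Every one of these peaks was labelled intergenic or intronic. Peaks with a promoter label carried no repeat label and reached up to 1994 bp from a transcription start site (TSS) in myotubes and 1997 bp in myoblasts, so a peak closer to a start than that could not be counted. Among intergenic and intronic peaks alone the share was 3.60% in myotubes (34 of 945, 2.50 to 4.99%) and 5.63% in myoblasts (988 of 17555, 5.29 to 5.98%).

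The share in myoblasts changed with the strength of the peak. Among the intergenic and intronic myoblast peaks, cut by score into 4 groups of equal size, 6.77% of the lowest group lay in an element, then 6.02%, 5.22% and, in the highest group, 4.51% (198 of 4388, 3.92 to 5.17%). The interval of the lowest group, 6.04 to 7.55%, did not overlap that of the highest. Peaks of equal score at a cut were split by chromosome and start, with those of chromosome 1 going to the lower group first. The part of this rule in the decline was not tested. In myotubes the 4 groups held 3.38%, 3.81%, 4.66% and 2.54%, on 6 to 11 element peaks each, and their intervals overlapped. When the myoblast list was limited to its 1061 strongest peaks, as many as in myotubes, 32 of them lay in an element, or 3.02% (2.07 to 4.23%), which lies within the interval of the 3.20% in myotubes. When it was limited instead to peaks at or above the lowest myotube score, the share was 5.04% (927 of 18399).

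LINE elements held most of the peaks, and every LINE element was a CR1. In myotubes 28 of 34 element peaks were in CR1 (82.4%, 65.5 to 93.2%), against 752 of 988 in myoblasts (76.1%, 73.3 to 78.7%). DNA transposons held 5 of 34 element peaks in myotubes (14.7%, 4.95 to 31.1%) and 111 in myoblasts (11.2%, 9.33 to 13.4%). LTR elements held 1 peak in myotubes (2.94%, 0.0744 to 15.3%) and 109 in myoblasts (11%, 9.15 to 13.2%). SINE elements held no peak in myotubes, where a count of 0 of 34 has an upper bound of 10.3%, and 16 in myoblasts (1.62%, 0.928 to 2.62%). The intervals of all 4 classes overlapped between the states. Among the 32 element peaks of the 1061 strongest myoblast peaks, CR1 stood at 59.4%, LTR elements at 21.9% and SINE elements at 3.13%. No interval was computed for these shares, and 32 peaks are few to place them. How much of the genome each class, family, element name or CR1 group takes up was not analysed here. Whether the shares given here and in the next paragraphs follow it was not tested, so they cannot be read as a preference of c-Myc.

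**Figure D1:**
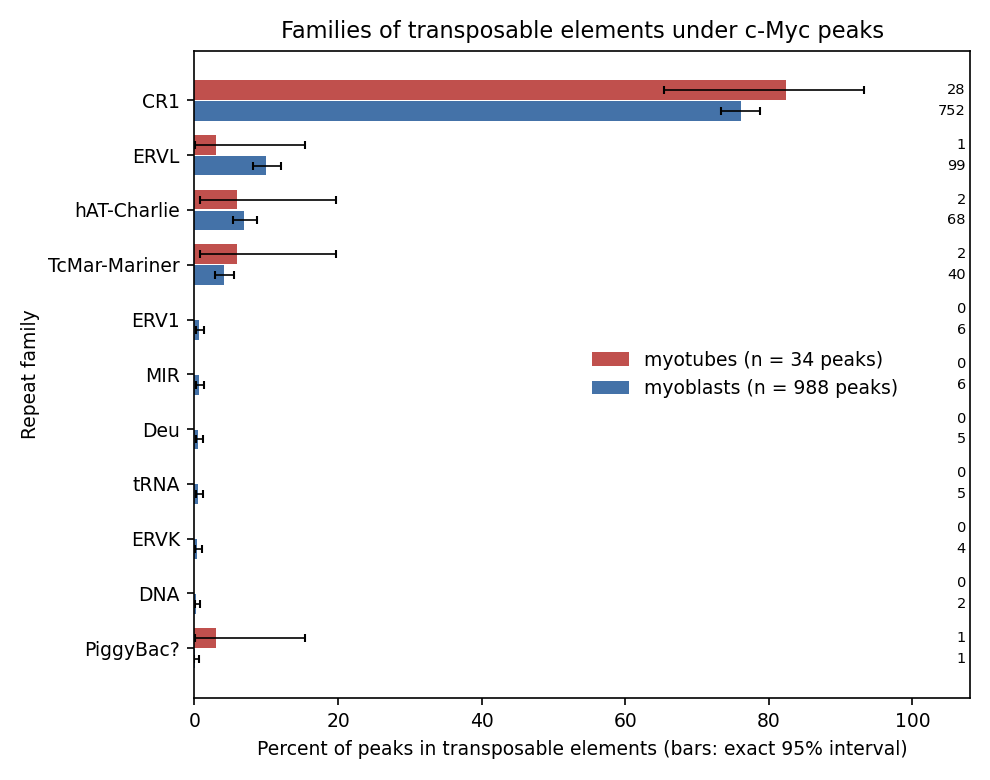
Percent of the peaks in transposable elements (horizontal axis) that fell in each repeat family (vertical axis), with myotubes in red above myoblasts in blue; error bars are exact 95% intervals and the numbers at the right edge are peak counts. CR1 takes 28 of 34 peaks in myotubes and 752 of 988 in myoblasts, and no other family exceeds 100 peaks in either state.

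Below CR1 the families were the retroviral ERVL family and a pair of DNA transposon families. ERVL elements held 1 peak in myotubes and 99 in myoblasts (10.02% of element peaks). The hAT-Charlie family, related to the hobo, Activator and Tam transposons, held 2 peaks in myotubes and 68 in myoblasts (6.88%), and 59 of those 68 were in the single element Char12Mar1_GG. The TcMar-Mariner family held 2 peaks in myotubes and 40 in myoblasts (4.05%). The remaining families were thinly filled in myoblasts, with 6 peaks each in ERV1 and the SINE family called MIR, 5 each in Deu and tRNA-derived SINEs, 4 in ERVK, 2 in DNA elements of no named family and 1 in an element of uncertain PiggyBac assignment. The last of these, UCON29, also held 1 myotube peak. The repeat family called MIR has no relation to the microRNA genes, whose symbols begin with the same letters.

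By name, the element peaks of myotubes fell in 18 different elements and those of myoblasts in 72, and all 18 were among the 72. CR1-C4 led in myotubes with 6 peaks (17.6% of element peaks, 6.76 to 34.5%), where myoblasts had 99 (10.02%). CR1-F2 led in myoblasts with 100 peaks (10.1%), against 2 in myotubes (5.88%). After these came CR1-H and CR1-Y4 with 3 peaks each in myotubes. In myoblasts the next were CR1-D2 with 62, Char12Mar1_GG with 59, CR1-E with 48 and CR1-Y4 with 45.

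Grouped by the letter after the hyphen, the CR1 peaks spread over most of the known letters rather than one. The C group, to which CR1-C4 belongs, held 6 of the 28 CR1 peaks in myotubes (21.4%) and 175 of the 752 in myoblasts (23.3%). The Y group held 7 in myotubes (25.0%) and 148 in myoblasts (19.7%), and the F group held 3 in myotubes (10.7%) and 140 in myoblasts (18.6%). The H group showed the widest ratio between the shares among the 5 groups with at least 3 myotube peaks, at 4 of 28 in myotubes (14.3%, 4.03 to 32.7%) and 41 of 752 in myoblasts (5.45%, 3.94 to 7.32%), and these intervals still overlapped. The G group, with 13 myoblast peaks, had none in myotubes.

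**Figure D2:**
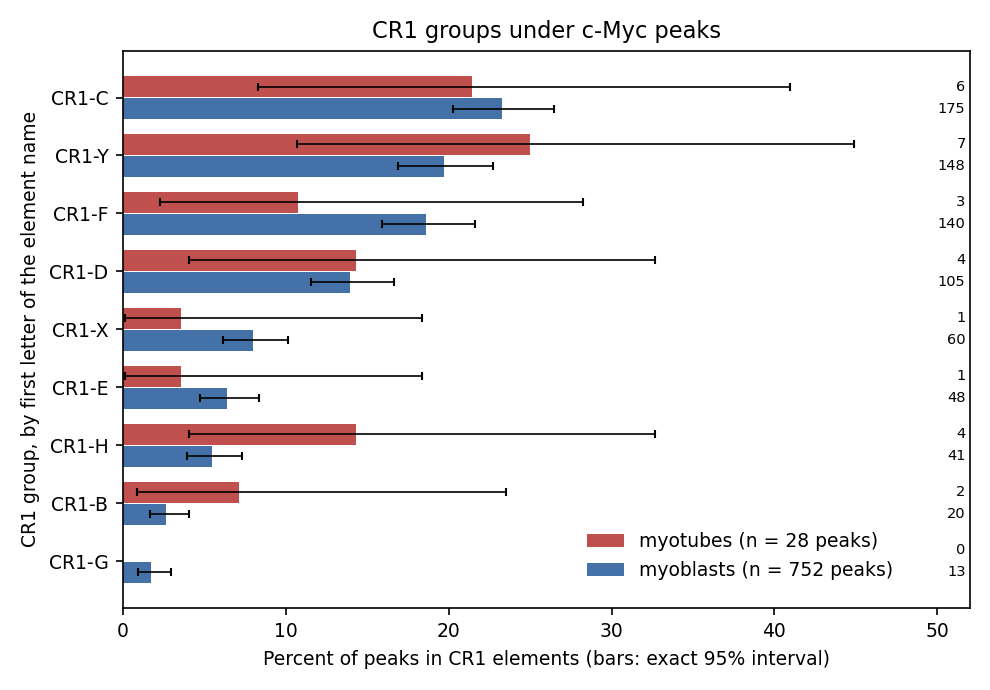
Percent of CR1 peaks (horizontal axis) in each CR1 group, named by the first letter of the element name (vertical axis), with myotubes in red above myoblasts in blue; error bars are exact 95% intervals and the numbers at the right are peak counts, and 2 myoblast peaks with no such letter are not drawn. The interval of every myotube group overlaps that of the same group in myoblasts.

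The tags over element peaks were few, with medians close to those over all peaks. In myotubes the median element peak had 11.5 c-Myc tags (range 10.5 to 18.5) and 3 IgG tags (0 to 9), against 12 and 3 over all myotube peaks. In myoblasts it had 14 c-Myc tags (9 to 27) and 2.5 IgG tags (0 to 9.5), against 14.5 and 2.5 over all myoblast peaks. Summed and scaled per 10000000 tags, a myotube element peak averaged 14.1 c-Myc tags (12.8 to 15.5) and 1.67 IgG tags (1.37 to 2.01), a ratio of 8.43, where all myotube peaks had 8.51. A myoblast element peak averaged 12.7 c-Myc tags (12.5 to 13.0) and 1.64 IgG tags (1.58 to 1.71), a ratio of 7.77, where all myoblast peaks had 7.80. Other intergenic and intronic peaks averaged 15.3 c-Myc tags in myotubes (15.0 to 15.6) and 13.3 in myoblasts (13.2 to 13.3). They include peaks in simple repeats and low-complexity sequence, which averaged 36.7 c-Myc tags in myotubes and 24.2 in myoblasts. The average of the other peaks without those repeats was not computed. In myoblasts the c-Myc interval of element peaks lay below that of these other peaks, and in myotubes the intervals overlapped. The peak caller kept only peaks that were at least 4-fold over IgG, so c-Myc above IgG was a condition of entry and is not a finding. Element peaks and all peaks passed the same limits, and how far these set the likeness of their medians and ratios was not tested.

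At a stricter fold the element peaks followed the rest of each list. A deposited fold over IgG of at least 8 was reached by 18 of 34 element peaks in myotubes (52.9%), where 57.1% of all myotube peaks reached it. In myoblasts 489 of 988 reached it (49.5%), where 49.8% of all myoblast peaks did. No IgG tag at all lay over 4 myotube element peaks (11.8%, beside 9.05% of all myotube peaks) and 67 myoblast element peaks (6.78%, beside 7.36% of all myoblast peaks). The upper end of the tag counts was lower in elements than in the other repeats. The strongest element peak had 18.5 c-Myc tags in myotubes and 27 in myoblasts, while peaks in simple repeats and low-complexity sequence reached 186.5 tags in myotubes and 343.5 in myoblasts, with c-Myc to IgG ratios of 5.41 in myotubes and 6.19 in myoblasts.

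**Figure D3:**
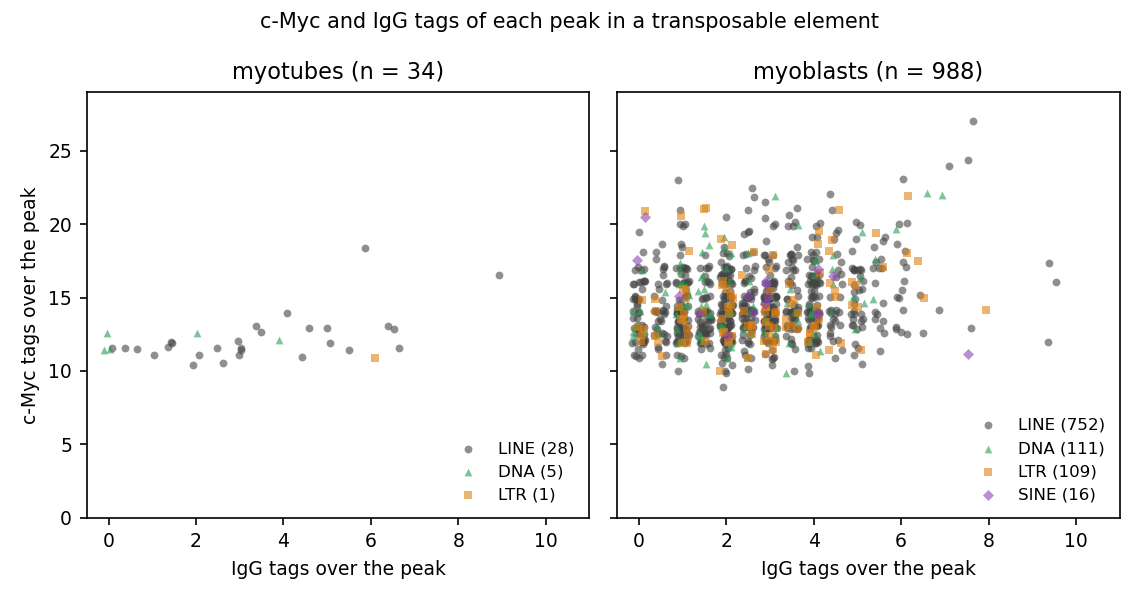
c-Myc tags (vertical axis) against IgG tags (horizontal axis) over each peak in a transposable element, with myotubes on the left and myoblasts on the right; each point is 1 peak, marked by class and moved slightly at random so that equal values can be seen. Myotube points lie between 10.5 and 18.5 c-Myc tags and myoblast points between 9 and 27, in both panels with at most 9.5 IgG tags and with the classes intermixed.

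Families did not separate by tags in myoblasts. The median peak had 14 c-Myc tags in CR1, ERVL and hAT-Charlie elements and 14.5 in TcMar-Mariner elements, with 2 to 3 IgG tags in all 4 families. The ratio of c-Myc to IgG after scaling was 7.74 in LINE, 8.50 in DNA, 7.33 in LTR and 7.47 in SINE elements. All these peaks had passed the same limits of the peak caller, with a lowest score of 7.84 in the myoblast list. How far those limits set the likeness of the families was not tested. In myotubes the 28 CR1 peaks had a ratio of 7.84, and the 5 DNA transposon peaks had 11.5 to 12.5 c-Myc tags with 0 to 4 IgG tags, 3 of them with none. The 5 rest on 6 IgG tags in all (2.20 to 13.1), too few to place their ratio.

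The strongest element peak of myotubes lay in a CR1-H at chr1:1970-2124 (galGal4 coordinates as deposited, here and below), 12.6 kb upstream of the predicted gene LOC425783, near the first base of the assembled chromosome. It scored 21.4, with 18.5 c-Myc tags (11.1 to 29.1) and 6 IgG tags (2.20 to 13.1). The second, in a CR1-Y at chr3:72090440-72090594, scored 19.1 with 16.5 c-Myc and 9 IgG tags; its nearest start, 130 kb away, was that of FHL5, a LIM-domain protein gene. The next 3 were the CR1-C4 near PCP4 at 16.2, which is described below, and 2 peaks at 15.0. One of these was in a CR1-Y, 197 kb from the Toll-like receptor gene TLR2-1, with 13 c-Myc and 3.5 IgG tags. The other was in a CR1-X1, 499 kb from CRIM1, which codes for a membrane protein that binds bone morphogenetic proteins, with 13 c-Myc and 6.5 IgG tags. Below these the scores lay close together, with the other 29 peaks between 11.6 and 14.4.

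The strongest element peak of myoblasts also lay in a CR1, a CR1-C4 at chr23:5630509-5630709, 46.7 kb upstream of the liver basic fatty acid-binding protein gene LBFABP. It scored 23.5, with 27 c-Myc tags (17.8 to 39.3) and 7.5 IgG tags. CR1-E elements at 19.6 near PHF14, a PHD-finger protein gene, and at 19.2 near the microRNA gene MIR155 lay 487 kb and 1048 kb from those starts. Of the 10 highest, 7 were in CR1 elements, and the other 3 were in an AmnSINE1, a GGLTR5A and a Char12Mar1_GG.

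The non-CR1 families had peaks of nearly the same height. The AmnSINE1 peak, from the Deu family of SINEs, lay at chr18:8680502-8680702 and scored 19.6 with 20.5 c-Myc tags and no IgG tag. Its nearest start, 214 kb away, was that of KCNJ2, an inward-rectifier potassium channel gene expressed in muscle. Among ERVL elements the highest were the GGLTR5A at 19.2 near the ectonucleotidase gene ENTPD2, with 22 c-Myc and 6 IgG tags, and a GGLTR3C2 at 18.7 that lay 9.20 kb upstream of the zinc-finger gene ZNF302, with 21 c-Myc and 1.5 IgG tags. Among hAT-Charlie elements the highest were 2 Char12Mar1_GG copies at 19.2, near TMEM68 with 22 c-Myc and 7 IgG tags and near RELL1 with 22 and 6.5. The highest Mariner peak, a Mariner1_GG in intron 1 of the sorting nexin gene SNX3, scored 17.4 with 20 c-Myc and 3.5 IgG tags. Another Mariner1_GG, in intron 3 of QKI, which codes for an RNA-binding protein with roles in splicing, scored 16.1 with 19.5 and 6.

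The thinner families of myoblasts held few peaks of any height. Their median scores were 13.9 in Deu, 13.5 in MIR, 13.05 in ERVK, 12.2 in tRNA-derived and 11.1 in ERV1 elements, beside 12.2 in CR1. The highest ERV1 peak, in a GGLTR7-int, scored 17.0 with 19.5 c-Myc and 5.5 IgG tags, 44.1 kb from the immediate-early transcription factor gene EGR1. The highest peak of the SINE family MIR, in a MIR_Aves1, scored 15.3 with 17.5 c-Myc tags and no IgG tag, 34.5 kb from HOOK1. The highest tRNA-derived peaks were 2 LFSINE_Vert copies at 13.1, near ARL6IP5 with 15 c-Myc and 3 IgG tags and near the ubiquitin-conjugating enzyme variant UBE2V2 with 15 and 1. In myotubes the ERV1, MIR and tRNA-derived families had no peak. A Mariner1b_GG on chromosome Z near the glycine decarboxylase gene GLDC scored 14.4, and a GGERVL-C-int on Z near the lysophosphatidic acid receptor gene LPAR1 scored 13.9.

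Most element peaks lay outside genes. Introns held 5 of 34 in myotubes (14.7%, 4.95 to 31.1%) and 131 of 988 in myoblasts (13.3%, 11.2 to 15.5%), where 13.5% of other intergenic and intronic peaks in myotubes and 15.1% in myoblasts were intronic. The first intron held 1 of the 5 in myotubes and 33 of the 131 in myoblasts. Of other intronic peaks it held 35 of 123 in myotubes and 586 of 2498 in myoblasts. The myotube hosts were EMP1 (epithelial membrane protein 1, a CR1-F2 in intron 2), the atypical cadherin gene FAT3 (a CR1-F in intron 1), LYRM4 (a mitochondrial iron-sulfur cluster factor, a CR1-D in intron 2), the signal peptidase subunit gene SEC11A (a CR1-Y4 in intron 3) and the neuropeptide receptor gene VIPR1 (a CR1-D2 in intron 2). The deposited nearest start to the last was not that of its host but of the microRNA gene MIR1662, and in myoblasts the host also differed from the nearest gene for 24 of the 130 intronic element peaks whose host could be named.

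The highest intronic element peak of myoblasts scored below the highest intergenic one, which stood at 23.5. The scores of intronic and intergenic element peaks were not compared as groups. The highest intronic peak, in a CR1-Y2_Aves in intron 1 of the agouti signalling protein gene ASIP, scored 18.3 with 20 c-Myc and 3.5 IgG tags. A Char12Mar1_GG in intron 10 of the inositol phosphate kinase gene IPPK scored 17.9 with 18 and 1.5. A CR1-F2 in intron 5 of SLIT3, a secreted guidance ligand of ROBO receptors, scored 17.4 with 20 and 3.5. Hosts that were also in the gene lists described below included IGF1R and MYL3. How many of the 119 host transcripts in myoblasts belong to muscle genes was not counted. A CR1-C in intron 10 of IGF1R, the receptor of insulin-like growth factor 1, scored 15.7 with 18 c-Myc and 2 IgG tags, and a CR1-C in intron 1 of MYL3, a myosin light chain gene, scored 15.7 with 18 and 4.

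Element peaks lay far from annotated starts. The median distance was 68.4 kb in myotubes (26.2 to 164 kb), beside 53.0 kb for other intergenic and intronic myotube peaks, and 97.6 kb in myoblasts (88.8 to 114 kb), beside 66.4 kb for other such myoblast peaks (64.8 to 68.5 kb). Within 10 kb of a start lay 4 of 34 element peaks in myotubes (11.8%, 3.30 to 27.5%; other peaks 11.2%) and 68 of 988 in myoblasts (6.88%, 5.38 to 8.64%; other peaks 10.7%, 10.2 to 11.2%). Within 50 kb lay 13 in myotubes (38.2%; other peaks 48.0%) and 305 in myoblasts (30.9%, 28 to 33.9%; other peaks 42.3%, 41.6 to 43.1%). In myoblasts these intervals of element peaks and other peaks did not overlap, and in myotubes they did. Among the 32 element peaks of the 1061 strongest in myoblasts, 12.5% lay within 10 kb. No interval was computed for this share, and 32 peaks are few. The share of the other strongest intergenic and intronic peaks within 10 kb was not computed, so the 12.5% cannot be set against the shares above.

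The same relation read the other way gives the share of elements at each distance. Among intergenic and intronic myoblast peaks beyond 50 kb from a start, 6.67% were in an element (6.19 to 7.17%), against 3.70% of those within 10 kb (2.88 to 4.66%). In myotubes the shares were 4.24% beyond 50 kb (21 of 495) and 3.77% within 10 kb (4 of 106). How much of the sequence at each distance consists of elements was not analysed here, and its part in these shares was not tested.

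**Figure D4:**
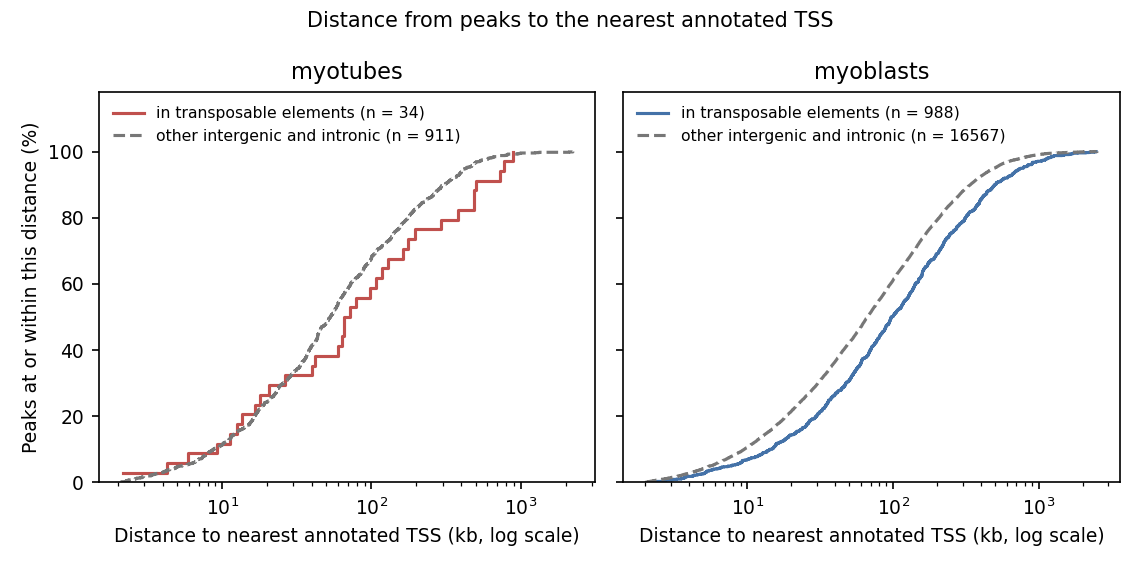
Percent of peaks at or within a given distance (vertical axis) of the nearest annotated TSS (horizontal axis, kb, log scale), with myotubes on the left and myoblasts on the right; solid lines are peaks in transposable elements and dashed lines other intergenic and intronic peaks. In myoblasts the solid line runs below the dashed one, at 30.9% against 42.3% within 50 kb, and in myotubes the lines cross at short distances and stand at 38.2% against 48.0% within 50 kb.

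Few of the counted element peaks lay close to a start. Peaks with a promoter label, up to 1994 bp from a start in myotubes and 1997 bp in myoblasts, could not be counted, which bounds the distances below. In myotubes the closest was a CR1-D 2.16 kb upstream of FTL, a ferritin light chain gene, which scored 13.9 with 13 c-Myc and 5 IgG tags. The next were a CR1-C4 4.24 kb upstream of GLUL, which codes for glutamine synthetase, at 11.6 with 13 and 4.5, and the CR1-Y4 in SEC11A 5.92 kb from the start, at 12.7 with 11 and 1. In myoblasts the closest was a Char12Mar1_GG 2.10 kb upstream of GATM, an enzyme gene of creatine synthesis, at 12.2 with 14.5 c-Myc and 1.5 IgG tags. A CR1-C lay 2.31 kb upstream of the immune gene LY86 at 9.15 with 11 and 2.5, and a CR1-H lay in intron 1 of the vesicle transport GTPase gene RAB10, 2.40 kb from its start, at 15.7 with 18 and 4.5. A CR1-X near the kinetochore gene NSL1 and a TguLTR5e near the scavenger receptor gene MARCO followed at 2.59 and 2.67 kb.

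The chromosomes differed in their share of element peaks. Chicken chromosomes fall into large macrochromosomes, here 1 to 5, intermediate ones, here 6 to 10, and small gene-dense microchromosomes, here 11 and up, and into the sex chromosomes Z and W. Chromosome W had no intergenic or intronic peak in either state, and so could have no element peak. On macrochromosomes 4.70% of intergenic and intronic peaks in myotubes lay in an element (23 of 489, 3.0 to 6.97%), against 7.30% in myoblasts (755 of 10344, 6.80 to 7.82%). On microchromosomes the shares were 1.86% in myotubes (5 of 269, 0.606 to 4.28%) and 2.45% in myoblasts (91 of 3709, 1.98 to 3.0%). The intermediate chromosomes had 1.81% in myotubes and 2.95% in myoblasts. Chromosome Z had the highest share of the 4 classes in both states, at 14.3% in myotubes (3 of 21, 3.05 to 36.3%) and 10.5% in myoblasts (54 of 516, 7.96 to 13.4%), and CR1 held 44 of the 54.

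Within the macrochromosomes of myoblasts the share followed the chromosome number, and so its length. It was 9.26% on chromosome 1 (287 of 3099), 8.36% on 2, 6.26% on 3, 4.97% on 4 and 4.80% on 5. The lowest share among chromosomes with at least 100 intergenic and intronic peaks was 0.932% on chromosome 15 (3 of 322). In myotubes chromosomes 1 to 5 had 10, 6, 2, 4 and 1 element peaks, too few for an order. The myotube peak in a CR1-Y4 near the lectin-like gene Y-LEC1, at a score of 13.9, was the only intergenic or intronic peak of chromosome 16 in that state. The microchromosomes carried 9.21% of all myoblast element peaks (7.48 to 11.2%), beside 21.8% of other intergenic and intronic myoblast peaks. They carried 40.6% of the 32 element peaks among the strongest 1061. The share of all 1061 strongest peaks on microchromosomes was not computed, so the 40.6% cannot be read as particular to elements. The element content of each chromosome was not analysed here, so whether these shares follow it was not tested.

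**Figure D5:**
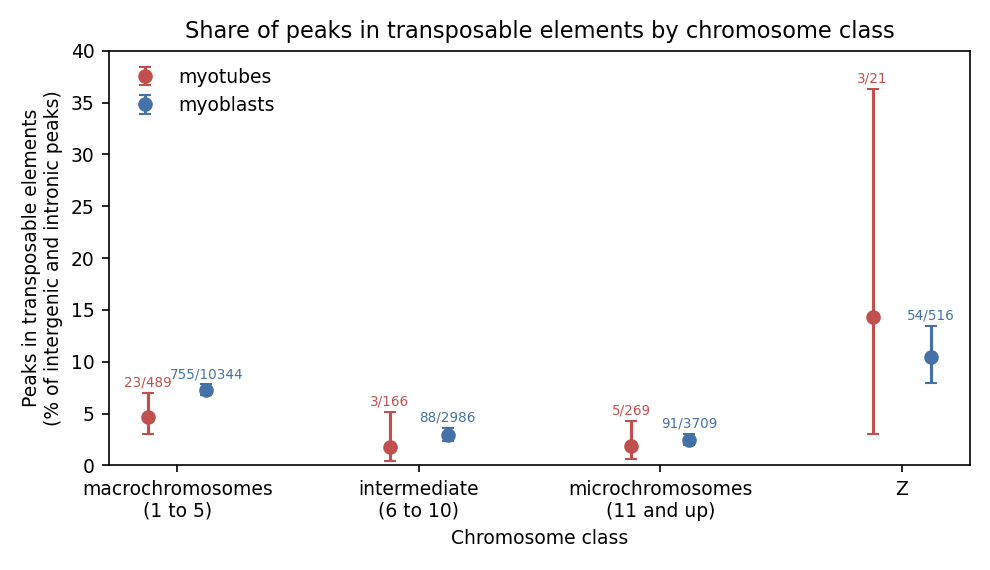
Percent of intergenic and intronic peaks that lie in a transposable element (vertical axis) by chromosome class (horizontal axis), with myotubes in red left of myoblasts in blue; points are shares, bars exact 95% intervals, and the labels give element peaks over all such peaks. Macrochromosomes (7.30%) and Z (10.5%) stand above intermediate chromosomes (2.95%) and microchromosomes (2.45%) in myoblasts with intervals that do not overlap, while the myotube intervals overlap.

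Few myotube peaks, in elements or in the list as a whole, were found at the same place in myoblasts. Of the 34 myotube element peaks 1 overlapped a myoblast peak (2.94%, 0.0744 to 15.3%), where 6.97% of all myotube peaks did (74 of 1061). The interval of the element peaks includes that share. Among other intergenic and intronic myotube peaks the share was 6.59% (60 of 911), and among peaks in simple repeats and low-complexity sequence it was 60.8% (31 of 51). The single shared site was the CR1-C4 at chr1:107448739-107448893 in myotubes and chr1:107448709-107448909 in myoblasts, 59.7 kb upstream of PCP4, a gene for a small calmodulin-binding protein of neurons. It scored 16.2 in myotubes, with 14 c-Myc tags (7.65 to 23.5) and 4 IgG tags, and 21.4 in myoblasts, with 24.5 c-Myc tags (15.8 to 36.3) and 7.5 IgG tags. The centres lay 7 bp apart, and the site was the third highest element peak of myotubes and the second highest of myoblasts. Its fold over IgG was 7.8 in myotubes and 4.58 in myoblasts, so a threshold of 8 left no shared site.

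A looser distance added few. With centres within 1 kb, 4 of the 34 myotube element peaks had a myoblast neighbour, and the fifth nearest was 1176 bp from one. The added neighbours were not themselves in elements. A CR1-C4 near the proprotein convertase gene PCSK7 lay 483 bp from an intergenic myoblast peak that scored 19.6, a Char12Mar1_GG near the mitochondrial flavoprotein dehydrogenase gene ETFDH lay 619 bp from one at 13.1, and the CR1-F2 in EMP1 lay 690 bp from an exonic myoblast peak at 20. The fifth nearest was the CR1-C4 upstream of GLUL, whose myoblast neighbour scored 13.9.

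The states shared some nearest genes. The 34 myotube element peaks named 34 nearest genes, 1 each, or 3.84% of the 885 genes in the myotube list, while the 988 of myoblasts named 735 genes, or 15.4% of 4766. Of the 34 genes 16 (47.1%, 29.8 to 64.9%) were also nearest to an element peak in myoblasts, which is 2.18% of the 735. Beside this, 21.8% of all 885 genes of the myotube list had a myoblast element peak (193 genes). The 885 include genes named only by peaks outside elements, so the 2 shares are not like for like. The number of peaks per gene and the distance between genes were not taken into account, and their part was not tested. At 1 of the 16, PCP4, the myotube element and the closest myoblast element had the same name, and at the other 15 these names differed. The pair closest together after PCP4 lay 4.40 kb apart near the sodium-proton exchanger gene SLC9A2, a Mariner1_GG in myotubes (13.3, 11.5 c-Myc and 0 IgG tags) and a Mariner1b_GG in myoblasts (10.9, 13.5 and 3). The pair near CRIM1 lay 8.19 kb apart, a CR1-X1 in myotubes (15.0) and a CR1-F2 in myoblasts (12.6, 11.5 c-Myc and 0.5 IgG tags). The remaining 13 pairs were 36.2 to 397 kb apart.

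In myoblasts 575 genes were nearest to 1 element peak, 160 to more than 1 and 20 to at least 4. The farthest element peak of each of these 20 lay 151 to 2469 kb from the start. The genes named next were taken from these 20, so their high counts follow from that choice. Of all myoblast peaks 5.10% lay in an element, and of intergenic and intronic ones beyond 50 kb 6.67% did. The highest number was 10, at SPRY2, an inhibitor of receptor tyrosine kinase signalling, spread over 130 to 1838 kb from its start with scores of 10.5 to 13.5, and this was 10 of its 28 peaks. The DNA repair endonuclease gene ERCC5 had 7 of its 16 peaks in elements, with scores of 11.3 to 18.3. MMP16, a membrane-bound matrix metalloproteinase gene, had 7 of 12, at 20.8 to 318 kb and scores of 10.5 to 13.1. The cholecystokinin receptor gene CCKAR had 5 of 27, all in CR1 elements, and the heat-shock protein gene HSPA13 had 4 of 41, of which 3 were in Mariner1_GG copies. MicroRNA genes were nearest to 7 of the 34 element peaks in myotubes (20.6%), beside 10.4% of other intergenic and intronic and 10.3% of all myotube peaks. In myoblasts they were nearest to 130 (13.2%), beside 11.5% of other intergenic and intronic and 11% of all myoblast peaks. No interval was computed for these shares, and 7 peaks are few.

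MYC itself, the gene that codes for c-Myc, had 4 element peaks in myoblasts among its 31 peaks, and none in myotubes. This was 12.9% of its myoblast peaks, beside 5.10% of all myoblast peaks and 6.67% of intergenic and intronic ones beyond 50 kb. MYC was also among the 20 genes with at least 4 element peaks. No interval was computed for its 12.9%, and its 4 element peaks are too few to set that share apart. The 4 lay 95.5 to 208 kb from its start. These 4 were a Mariner1b_GG at 13.1 (11.5 c-Myc and 4 IgG tags, 208 kb upstream), a CR1-F2 at 11.8 (14 and 1, 95.5 kb upstream), a GGLTR8B at 10.9 (12.5 and 1, 178 kb upstream) and a CR1-X1 at 9.15 (10.5 and 5, 122 kb downstream of the start). Of the 4, 3 scored below the median of 12.2 for myoblast element peaks. In the myoblast list 1 of 8 genes of the MYC network, MYC, had an element peak (12.5%, 0.316 to 52.7%), beside 15.4% of all genes, and the interval includes that share.

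Some genes of muscle were nearest to element peaks. Of 18 myogenic regulators in the myoblast list 2 had an element peak (11.1%, 1.38 to 34.7%, beside 15.4% of all genes): MYF5, an early determination factor, with a CR1-C3 at 14.8 (17 c-Myc and 5.5 IgG tags, 370 kb away) and a GGLTR8A at 13.5, and TCF12, a partner of the myogenic factors, with a CR1-D at 10.5. Of 20 sarcomere and contraction genes 5 had one (25.0%, 8.66 to 49.1%, beside the same 15.4%). RYR3, a calcium release channel, had a Char12Mar1_GG at 17.4 (18.5 and 2) and a CR1-Y4 at 11.3 (14 and 1.5) that lay 596 bp apart, 20.9 and 21.5 kb upstream of its start. MYOM2, a structural protein of the sarcomere M-band, had a CR1-H at 14.8 (17 and 1), CASQ2, a calcium store protein, a Char12Mar1_GG at 13.9 (16.5 and 1.5) 9.23 kb upstream, and TNNC1, the calcium sensor of slow and cardiac troponin, a CR1-C at 12.6 with 16 c-Myc tags and 9.5 IgG tags, the highest IgG count of any myoblast element peak, shared with 2 others.

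The muscle microRNA MIR206 was nearest to a CR1-F at 14.8 (17 c-Myc and 2 IgG tags, 190 kb away) and a CR1-C at 12.2 (14 and 3, 68.1 kb away) in myoblasts, and MIR133A-1 to a CR1-E at 14.8 (17 and 2, 128 kb away), so 2 of the 3 muscle microRNA genes in that list had an element peak (66.7%, 9.43 to 99.2%, beside 15.4% of all genes). In myotubes the 1 such neighbour was NCAM1, a neural cell adhesion gene also used by fusing muscle cells, with a Char12Mar1_GG 63.9 kb upstream at 12.1 (11.5 c-Myc tags and no IgG tag). It was 1 of 2 fusion and muscle membrane genes in the myotube list, and no gene of the other 9 lists had an element peak in myotubes (3.84% of all genes there). Of those lists, the muscle microRNAs and the genes of chromatin silencing of repeats named no gene in the myotube list. The others named 1 to 11 each, too few to read an absence from. In myoblasts 1 of 7 fusion genes had any (14.3%, 0.361 to 57.9%), the cadherin gene CDH2, with 4 peaks at 10.5 to 13.9.

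Cell cycle and growth targets of MYC had 2 of 21 genes with an element peak in myoblasts (9.52%, 1.17 to 30.4%, beside 15.4% of all genes). CCNB2, a mitotic cyclin, had a Char12Mar1_GG in intron 6 at 11.3 (13.5 c-Myc and 3 IgG tags), and CCND2, a cyclin of the first growth phase, had a CR1-C4 at 9.59 (11 and 3) 313 kb away. Of 42 genes of growth factor, TGF-beta, Wnt and Notch signalling 8 had one (19.0%, 8.60 to 34.1%), and the intervals of both lists include the share of all genes. The strongest were a CR1-X2 157 kb from the fibroblast growth factor receptor gene FGFR2 at 18.3 (23 and 1) and a CR1-D2 141 kb from the Wnt receptor gene FZD4 at 17.0 (19.5 and 2.5).

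Neural and synaptic genes had the highest share of the lists with at least 5 genes in the myoblast list, 14 of 34 (41.2%, 24.6 to 59.3%, beside 15.4% of all genes) with 23 peaks. Besides the CR1-F2 in SLIT3 these included a CR1-H 116 kb from the guidance ligand gene SEMA3C at 15.3 (17.5 c-Myc and 6 IgG tags), a CR1-C4 in intron 1 of the cadherin gene CDH13 at 14.8 (16.5 and 3.5) and a CR1-C3 near CDH10 at 14.8 (17 and 1), 1227 kb from its start. The protocadherin gene PCDH10 had 5. In myotubes 0 of the 11 neural genes named there had an element peak (0 to 28.5%), an interval that includes the 3.84% of all genes in that list. The 10 gene lists were chosen with earlier results of these data known. The neural list is set out for its high share, so its interval is no test of enrichment. Gene length, the distance between genes and the number of peaks per gene were not taken into account, and their part in these shares was not tested. Of 18 markers of fibroblasts, adipocytes, endothelium and blood 2 had an element peak in myoblasts, HBZ and POSTN (11.1%, 1.38 to 34.7%), and of 7 genes of chromatin silencing of repeats 0 had (0 to 41%), both beside 15.4% of all genes.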

How the data were processed

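ChIP-seq of c-Myc and IgG was done in 1 library each in chicken myotubes and myoblasts. Per the submitters' processing notes, CASAVA 1.8.2, Trimmomatic 0.30, FastQC 0.10.1, Bowtie2 2.1.0 and HOMER 4.6 were used; the sources used here do not give peak-calling options or how reads that map to several copies of a repeat were treated. Per the file headers, peaks were annotated on galGal4 with annotatePeaks.pl and the option -noadj.

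The deposited peak score equals the caller's c-Myc tags per 10000000 library tags to within 0.05. The deposited signal values are c-Myc and IgG tags over each peak, unnormalised and in steps of 0.5 per the file headers and values, and the caller's IgG tags after scaling to c-Myc depth. The authors also deposited the fold (ratio) of a peak over IgG and over its surroundings, and p-values of the same comparison, which were not used here. Distances are the deposited distances to the nearest TSS. Coordinates are printed as deposited.

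From these values, shares with Clopper-Pearson intervals, tag sums with Poisson intervals, medians with order-statistic intervals and overlaps by at least 1 bp were computed with scipy 1.17.1, pandas 2.3.3 and numpy 2.4.6 under Python 3.11.15. Figures were made in matplotlib 3.10.9. The procedures were tested on simulated data. Tags in steps of 0.5 are not independent molecules, so Poisson intervals are approximate. Nearest genes are those of the deposited annotation; 82.4% of the myotube and 91.8% of the myoblast symbols matched RefSeq symbols of a later assembly. Peaks named were the 10 highest by score per state, the 2 highest of each family with at least 5 peaks, the 5 closest to a TSS, up to 4 per gene list, shared sites and the 10 most frequent elements; other peaks were named after their values were seen. The members and the 10 gene lists were chosen with earlier results of these data known. Alternatives tried were a stricter fold, score limits, merged neighbours, other distances, other overlap rules and other tag scales. Element and peak sequences are not analysed here. A few peaks that met the naming rule are not reported here.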

Additional observations from a re-analysis of the deposited data

How the results depend on the processing

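Of 146 recalculated values over 11 settings, 115 moved by less than their interval or by less than 1.5 times for counts, and 31 moved more. A fold over IgG of at least 8 left 18 element peaks in myotubes and 489 in myoblasts, with a median of 1.5 IgG tags in each, 0% in LTR elements in myotubes and 0 shared sites. The upper 50% of each list by score left 19 element peaks in myotubes and 419 in myoblasts (4.33% of that list, median 16.5 c-Myc and 3 IgG tags, 11.5% on microchromosomes). As many top myoblast peaks as in the myotube list left 32 element peaks (3.02%), of which 59.4% were LINE, all CR1 (59.4%), 21.9% LTR, 15.6% DNA and 3.13% SINE elements, with medians of 21 c-Myc and 3.5 IgG tags, 9.38% in introns, 40.6% on microchromosomes and 12.5% within 10 kb of a TSS. Per 10000000 tags the median c-Myc value was 13.3 in myotubes and 12.2 in myoblasts, and scaled to the c-Myc library the median IgG value was 1.3 in myotubes and 1.8 in myoblasts, by construction. Within 50 kb instead of 10 kb lay 38.2% in myotubes and 30.9% in myoblasts, and centres within 1 kb gave 4 shared sites, both from a wider window. Otherwise the cause was not tested. Counting neighbours within 1 kb once, elements of uncertain class (1 in myotubes, 5 in myoblasts) and an overlap of 50% moved no value beyond these limits, and no peak lay on unplaced sequence. No paired analysis was possible because each group has 1 library. With 34 myotube peaks and a median of 11.5 c-Myc tags over each, counting error limits every myotube share, and peaks near the lowest score of a list depend on its depth. Repeat copies differ in how uniquely reads can be placed on them, which the deposited values do not show.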

Other observations

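A few pairs of element peaks stood side by side within a list. How often other peaks did so was not computed, so the count cannot be read as particular to elements. In myoblasts 3 pairs lay within 1 kb of each other, and in myotubes none did. A pair of CR1-D copies 732 bp apart near GLIPR1L scored 16.6 and 13.5, a pair of CR1-H copies 750 bp apart near the microRNA gene MIR6679 scored 13.1 and 11.3, and the third pair was the Char12Mar1_GG and CR1-Y4 near RYR3. Over their surroundings, rather than over IgG, element peaks had a median deposited fold of 8.24 in myotubes (all myotube peaks 7.58) and 6.52 in myoblasts (all myoblast peaks 5.93). The highest value, 19.5, belonged to a CR1-Y on chromosome Z in myoblasts, 393 kb from the microRNA gene MIR3607, with 19.5 c-Myc tags and no IgG tag.

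Globin gene clusters also had element peaks in myoblasts. A CR1-Y4 19.5 kb from HBE scored 15.7 with 18 c-Myc tags and no IgG tag, and a CR1-C4 3.0 kb from HBAA scored 10.5 with 12 and 2. Both were picked after their values were seen, and neither gene was in the marker list that holds HBZ.

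The caller's IgG tags and the later count of IgG tags could differ. A CR1-D2 near COX7A2L had a deposited fold over IgG of 36.4 in myoblasts, although 12 c-Myc and 9.5 IgG tags were counted over it. It was singled out after its values were seen.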
